A study of Homo sapiens with 8 samples.

Results

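The genes described here are the 52 replication-dependent histone genes among the 11244 genes of a ribosome profiling table. They are the genes whose symbol begins with HIST1H, HIST2H, HIST3H or HIST4H, the older names that the table uses. By histone type they are 5 H1, 13 H2A, 16 H2B, 10 H3 and 8 H4 genes. By name, 43 belong to HIST1, 5 to HIST2, 3 to HIST3 and 1 to HIST4. The libraries came from cells labelled HepG2, in which METTL5 was intact (METTL5-WT) or had been knocked out with a pair of CRISPR/Cas9 guides that delete exons of the gene (METTL5-KO). METTL5 adds N6-methyladenosine to 18S rRNA. Cells of every group had been treated with cycloheximide, which stalls elongating ribosomes. There were 2 METTL5-WT and 2 METTL5-KO lysates. Each gave an input RNA library and, after micrococcal nuclease digestion, a library of ribosome-protected fragments (RPF), for 8 libraries in 4 groups of 2. The cells were grown from single-cell clones, and which clone gave each lysate is not stated, so clone and genotype cannot be told apart. Nothing states that the replicates were independent cultures, so the p-values measure the spread between these lysates.

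The labelled cell line did not show in its defining genes. HepG2 is a liver cancer line, yet the 8 hepatocyte-lineage markers examined (ALB, AFP, APOA1, APOA2, APOB, TTR, SERPINA1 and GPC3) held at most 9 counts in any input library, and none of them is in the table of 11244 genes. ALB was at 0 counts in 3 of the 4 input libraries and at 1 in the other. COL3A1, a fibrillar collagen gene, held 2536 to 3317 counts in each input library, and COL1A1 held 429 to 937. The other markers of other cells examined were lower: ACTA2 held 54 to 70 counts, CD68 0 to 2, and PTPRC and PECAM1 0 to 1. The libraries are therefore called by their labels throughout. METTL5 was lower in the libraries labelled METTL5-KO. Its normalized values were 334 and 385 in METTL5-WT input, 125 and 75.8 in METTL5-KO input, 375 and 453 in METTL5-WT RPF, and 49.4 and 23.4 in METTL5-KO RPF, so the genotypes did not overlap. Input libraries held 10710226 to 15307257 counts, the METTL5-WT RPF libraries 3970779 and 4592443 reads, and the METTL5-KO RPF libraries 8626705 and 9255921 reads, so low genes are least precise in METTL5-WT RPF.

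Core histones H2A, H2B, H3 and H4 build the nucleosome, and the linker histone H1 binds the DNA that enters and leaves it. The bulk of these proteins is made in S phase from clustered genes that mostly lack introns. Their mRNAs are the main cellular mRNAs that end without a poly(A) tail. They end instead in a conserved stem-loop, which is bound by SLBP and which takes the place of the tail in processing, translation and decay. Input and RPF libraries of this series were prepared by depleting rRNA and without selection for poly(A), so such mRNAs were not removed by design.

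The stem-loop is shown because it ends the tail-less form of these mRNAs. A search of each gene's canonical annotated transcript for the 16-base pattern GGNNCTTNTNAGNGCC, on the transcript strand, found it in 52 of 52 histone genes. It began 24 to 63 bases after the stop codon. In 51 of them it lay within the last 100 bases of the transcript. Among these canonical transcripts the exception was HIST2H2BE, whose transcript runs on for 1729 bases past it. Other annotated transcripts were not placed in this way, and some genes have longer annotated exons. HIST1H2AC has 1668 exonic bases and HIST1H2AG 2250, against canonical transcripts of 519 and 493 bases. Of 11172 other genes searched, 1 had the pattern in its last 100 bases. A total of 31 genes shared 1 form and 9 shared another, and H4 genes had a form of their own in 7 of 8 cases. In the lines that follow, the 4 bases of the loop are in capitals and the 6 bases on each side form the stem.

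31 genes of types H1, H2A, H2B and H3: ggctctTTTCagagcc

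9 genes of types H1, H2A, H2B and H3: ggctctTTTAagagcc

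7 H4 genes: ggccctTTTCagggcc

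HIST1H4I: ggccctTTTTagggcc

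HIST1H2AK: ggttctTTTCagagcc

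HIST1H2AG: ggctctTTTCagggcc

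HIST2H2AC: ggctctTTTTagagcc

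HIST1H2BI: ggctctTCTAagagcc

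The histone genes were also short, rich in G and C, and alike. Their coding length had a median of 388.5 bases (312 to 681) against 1426.5 over the 11224 genes with an annotated coding sequence, and 47 of 52 were among the 10% of genes with the shortest coding sequences. Coding GC content had a median of 60.6% (53.2 to 67.7%) against 52.3%, and all 52 lay above that median. Within a type, coding sequences of equal length were 77.6 to 92.6% identical for H2A, 84.8 to 94.2% for H2B, 81.0 to 88.6% for H3 and 79.8 to 89.1% for H4. The share of 30-base coding windows that matched another histone gene with at most 2 mismatches, the tolerance used by the authors for RPF reads, ranged from 5.01% for HIST1H1A to 100% for 6 genes, with a median of 72.9%. It was lowest in H1 (5.01 to 15.5%) and highest in H2B (67.9 to 100%). Footprints of such windows can be dropped or given to the wrong copy, so single genes with a high share are uncertain. A histone gene was marked as having few reads when any of the 8 libraries held under 10 of its reads, which applied to 5 genes: HIST1H1D, HIST1H2BB, HIST1H3C, HIST1H3I and HIST3H3.

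Translation efficiency (TE) in METTL5-WT was higher for most histone genes than for the middle gene. TE is given as log2 of (RPF + 1)/(input + 1) on the deposited normalized values, averaged over the 2 METTL5-WT lysates. The histone genes had a median of 0.98 (n = 52) against 0.01 over all 11244 genes, and 38 of 52 lay above the latter. Of the 52, 16 were in the highest 10% of all genes and 3 in the lowest 10%. This value is a plain ratio of reads. When RPF was divided by coding length and input by exonic length, the histone median was 1.73 and the median of all genes 1.78, and 25 of 52 lay above it. The higher histone median was therefore not seen per length. Exonic length counts all annotated exons of a gene, so it can exceed the length of a transcript. HIST1H2AG, with 2250 exonic bases and a canonical transcript of 493, went from 1.46 to 3.98. The part of annotated exon length in the per-length medians, here and by type, was not tested. The 10% of genes with the shortest coding sequences had a per-length median of 2.45, and the 10% with the highest GC content 2.23. The 47 genes with at least 10 reads in every library had a ratio median of 0.94.

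By type, the median log2 TE in METTL5-WT was 1.40 for H1, 0.94 for H2A, −0.21 for H2B, 1.14 for H3 and 1.67 for H4. Per length the medians were 1.59, 1.52, 1.90, 1.64 and 2.83 in the same order, so H2B was lowest by the plain ratio but not per length, and H4 was highest by either. Genes of a type were spread widely. In H2A the log2 TE ran from −4.07 for HIST1H2AK to 4.13 for HIST1H2AM. In H2B it ran from −2.40 for HIST1H2BK to 3.19 for HIST2H2BE, and in H3 from −3.43 for HIST2H3D to 1.99 for HIST1H3B. H1 ranged from 0.56 for HIST1H1A to 2.22 for HIST1H1D, which had few reads, and H4 from 0.33 for HIST1H4I to 3.40 for HIST1H4H.

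The genes at the extremes are given with their near-copy shares. HIST1H2AK held 726 and 662 in METTL5-WT input and 47.5 and 34.1 in METTL5-WT RPF. HIST2H3D held 633 and 588 in METTL5-WT input and 45.1 and 68.2 in METTL5-WT RPF. HIST1H2BK held 1849 and 2054 in METTL5-WT input and 492 and 277 in METTL5-WT RPF. The near-copy share of these 3 low genes was 87.6%, 100% and 100%. HIST2H2BE, at the other end, had a share of 94.0%. At the top, HIST1H2AM held 1019.9 and 1106 in METTL5-WT input against 19887 and 17472 in METTL5-WT RPF, and 88.0% of its coding bases lie under an exon of HIST1H3J on the same strand in the annotation the authors counted with. Over near-copy classes, the median log2 TE was 1.32 for the 13 genes with a share under 50%, 1.26 for the 21 genes from 50% to under 90%, and −0.18 for the 18 genes at 90% or more. Per length the medians were 1.69, 2.31 and 1.26 in the same order, so the middle class was highest. The part of sequence sharing in these levels was not tested.

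**Figure D1:**
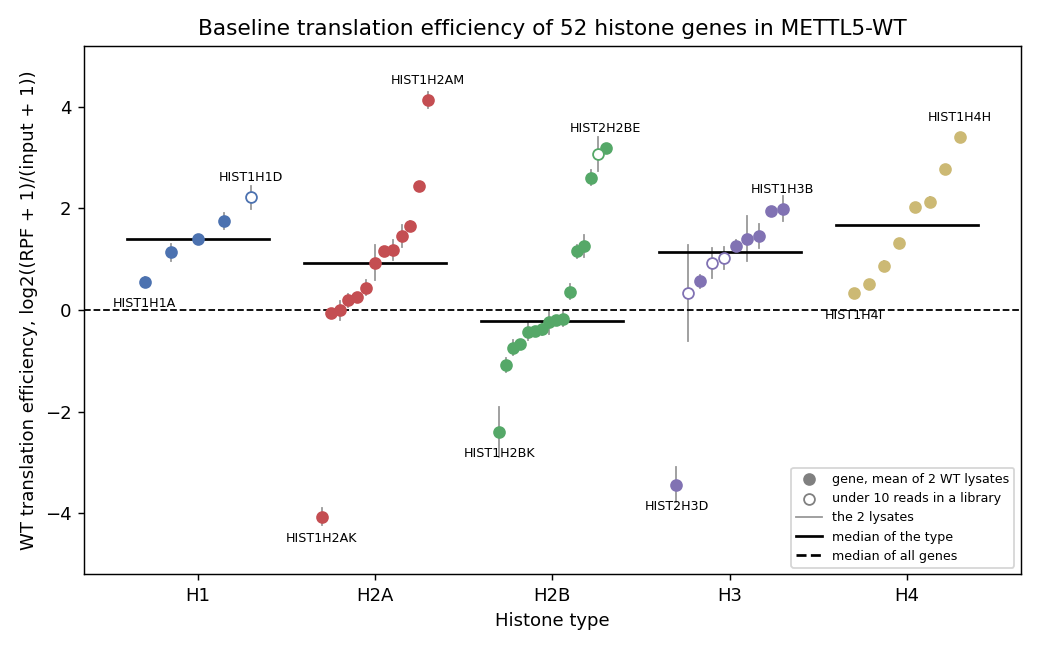
Each point is a histone gene, with its METTL5-WT log2 TE on the vertical axis (mean of the 2 lysates, thin line between them) and its histone type on the horizontal axis. Open points have under 10 reads in a library, black bars are type medians and the dashed line is the median of all genes at 0.01. HIST1H2AK, HIST1H2BK and HIST2H3D lie below −2, and HIST1H2AM lies highest at 4.13.

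In input RNA, more histone genes rose than fell in METTL5-KO. The edgeR quasi-likelihood test was fitted to all input counts and p was adjusted by Benjamini-Hochberg over all 14054 genes tested. Of the 48 histone genes tested, 25 rose and 10 fell at an adjusted p under 0.05. Over all genes 22.4% were called, 11.8% higher and 10.6% lower. The median log2 change of the histone genes was 0.37 against 0.00 for all genes. The rises were spread over types: 1 of 5 H1, 6 of 13 H2A, 9 of 15 H2B, 4 of 7 H3 and 5 of 8 H4 genes tested. The falls were 6 H2A, 3 H2B and 1 H1 gene, and no H3 or H4 gene was called lower by edgeR or DESeq2 or had an unadjusted p under 0.05 for a fall (0 genes). Over all genes DESeq2 called 1108 higher and 1075 lower of 31373 with any count. More cells in S phase and more mRNA per cell cannot be told apart in bulk libraries. Of 23 measured S-phase genes, 0 rose and 5 fell in input by edgeR and by DESeq2, and 0 rose at an unadjusted p under 0.05. Their part in the histone change was not tested. The split of calls changed with a GC correction. With the GC trend of each library removed, in limma on the table's input values, 14 histone genes rose and 11 fell, against 17.4% of all genes called (7.69% higher and 9.66% lower), and the median change was 0.22. The same limma fit without that step gave 20 higher and 9 lower (17.3% of all genes) and a median of 0.38. METTL5-KO replicate 2 was the higher of the METTL5-KO input libraries in every type, and without it the median was 0.19. Leaving out a METTL5-WT input library left 14 or 13 histone genes called (6 higher and 8 lower, or 5 higher and 8 lower), while 8.94% or 10.1% of all genes were called. Among the 13 genes with a near-copy share under 50%, 4 rose, 2 fell and the median was 0.07.

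In RPF, calls went the same way as in input. limma with a variance trend on log2(value + 1) was fitted to all 8 libraries, and of the 52 histone genes 16 rose and 11 fell, against 29.3% of all genes called, 16.2% higher and 13.1% lower. edgeR on the reads recovered from the table gave the same counts, 16 and 11, against 27.8% of all genes, and the 27 genes called by limma were also called by edgeR. The median change was 0.18 against 0.02 for all genes. The split changed with scaling: 7 rose and 12 fell after quantile normalization (24.9% of all genes called), and 11 rose and 16 fell with the trend on coding length removed (27.1%), where the median was −0.02. With the GC trend removed 19 rose and 11 fell, against 31.6% of all genes (16.2% higher and 15.4% lower). A total of 23 genes were called in the same direction in input and RPF, 14 higher and 9 lower, and 0 in opposite directions. Input and RPF libraries came from the same lysates.

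**Figure D2:**
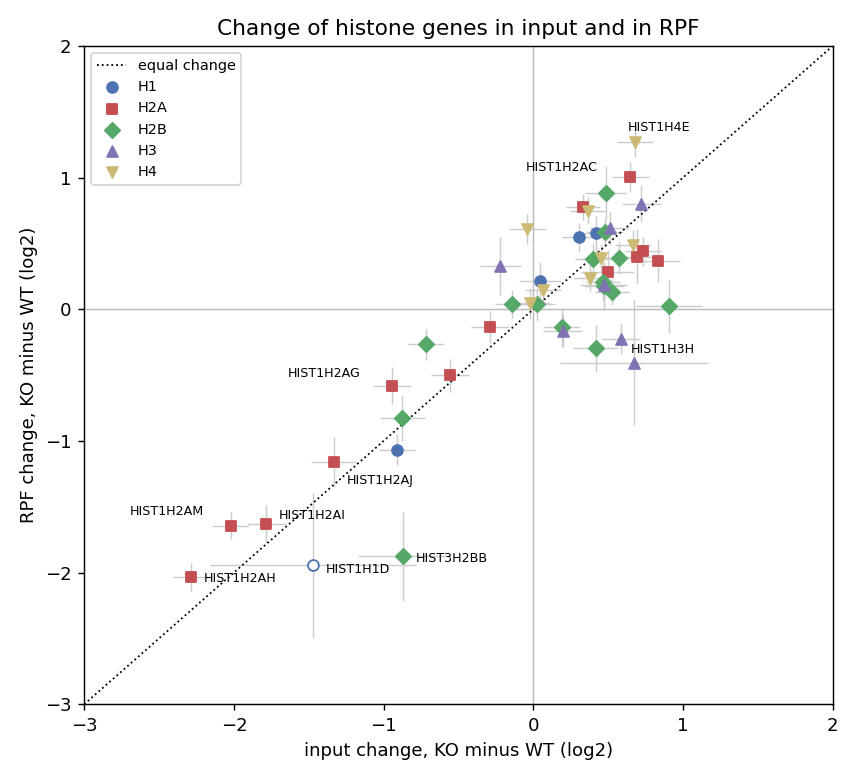
Each point is 1 of the 48 histone genes tested in input, with its input change in METTL5-KO minus METTL5-WT on the horizontal axis and its RPF change on the vertical axis (log2, thin lines are ± SE), coloured by type. The open point is a gene with few reads and the dotted line marks equal change. HIST1H2AH, HIST1H2AM, HIST1H2AI and HIST1H2AJ lie near the line at input changes of −2.28 to −1.33.

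Summed over a type, the normalized values of H2A went down and those of the other types went up. The H2A sum was 27703 and 27514 in METTL5-WT input and 20624 and 25527 in METTL5-KO input, and 77970 and 68550 in METTL5-WT RPF against 50580 and 50062 in METTL5-KO RPF. The log2 difference was −0.27 in input and −0.54 in RPF. The H4 sum was 21739 and 21187 in METTL5-WT input and 28382 and 31634 in METTL5-KO input, and 111907 and 104404 in METTL5-WT RPF against 165353 and 161101 in METTL5-KO RPF, a log2 difference of 0.48 and 0.59. H1 sums differed by 0.32 in input and 0.49 in RPF, H2B by 0.36 and 0.43, and H3 by 0.43 and 0.16. Sums are led by the genes with the highest values, and the median RPF change per gene was 0.21 for H1, −0.13 for H2A, 0.04 for H2B, 0.26 for H3 and 0.44 for H4. In H2B, HIST2H2BE went from a mean RPF of 21267 to 31857, while the mean of the H2B sum went from 39284 to 52952. The genotypes did not overlap in any type, in input or RPF. With 2 lysates against 2, the exact two-sided permutation test cannot go below p = 0.333, and that value was reached in each case. Histone genes made up 1.60, 1.60, 1.73 and 2.13% of input reads in METTL5-WT replicates 1 and 2 and METTL5-KO replicates 1 and 2, and 3.89, 3.56, 4.07 and 4.07% of RPF reads.

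**Figure D3:**
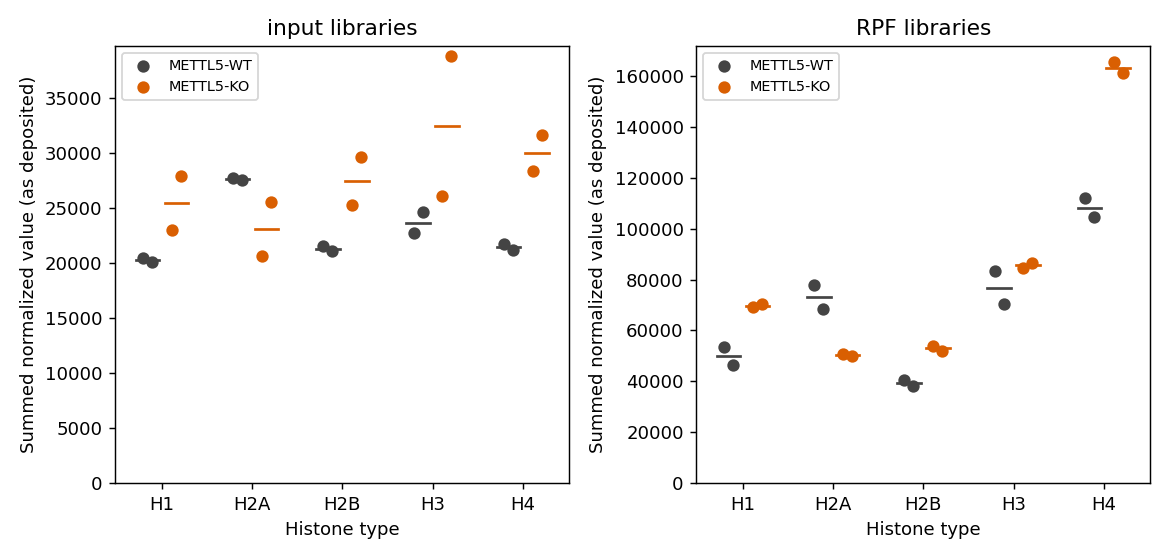
The sum of the normalized values over the genes of each histone type is shown for every library, input on the left and RPF on the right. Points are libraries, short lines are the means of 2, and grey and orange mark METTL5-WT and METTL5-KO. H2A is lower in METTL5-KO, and H4 RPF goes from a mean of 108156 to 163227.

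The linker histones diverged. HIST1H1C held 10028 and 9109.8 in METTL5-WT input, 11337 and 12548 in METTL5-KO input, 26686 and 23831 in METTL5-WT RPF, and 36600.5 and 37015 in METTL5-KO RPF, with METTL5-KO above METTL5-WT in both. Its RPF rose by 0.55 ± 0.11 (SE, limma adjusted p = 0.00173), and its input change of 0.31 had an edgeR adjusted p of 0.0638. After quantile normalization its RPF change was −0.00463. HIST1H1E held 9072 and 9599 in METTL5-WT input, 10757 and 14389.8 in METTL5-KO input, 22422 and 18849.6 in METTL5-WT RPF, and 30226 and 31156 in METTL5-KO RPF. Its input rose by 0.42 ± 0.13 (edgeR adjusted p = 0.0232) and its RPF by 0.58 ± 0.13 (limma adjusted p = 0.00375). HIST1H1B went the other way. It held 1019.9 and 1076 in METTL5-WT input, 513 and 611 in METTL5-KO input, 3818 and 3241 in METTL5-WT RPF, and 1670.2 and 1690.4 in METTL5-KO RPF, and its input fell by 0.91 ± 0.12 (edgeR adjusted p = 7.24e-06). HIST1H1A, at 332 and 323 in METTL5-WT input and 379 and 305 in METTL5-KO input, overlapped between genotypes. Its RPF was 525 and 447 against 575 and 549, with an adjusted p of 0.293 by limma. HIST1H1D had few reads, at 7.49 and 7.82 in METTL5-WT input and 2.41 and 3.01 in METTL5-KO input, and 45.1 and 34.1 against 7.24 and 12.3 in RPF.

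Among H2A genes, rises and falls came side by side. HIST1H2AC held 5332 and 5228 in METTL5-WT input, 7329 and 9367 in METTL5-KO input, 6612 and 5954 in METTL5-WT RPF, and 12990.5 and 12219.9 in METTL5-KO RPF. Its input rose by 0.65 ± 0.12 (edgeR adjusted p = 0.000501) and its RPF by 1.01 ± 0.12. HIST1H2AG held 7405 and 7473 in METTL5-WT input, 3369.6 and 4441 in METTL5-KO input, 23567 and 17719 in METTL5-WT RPF, and 13306 and 14053 in METTL5-KO RPF. Its input fell by 0.94 ± 0.13 and its RPF by 0.58 ± 0.14 (limma adjusted p = 0.00465). HIST1H2AM, at chr6:27892699-27893185 (hg38, minus strand), held 260.4 and 268 in METTL5-KO input and 6265 and 5687 in METTL5-KO RPF, against the METTL5-WT values above. Its input fell by 2.02 ± 0.12 and its RPF by 1.64 ± 0.10, and METTL5-KO lay below METTL5-WT in both. The effect of its overlap with HIST1H3J on these counts, here and in its pair below, was not tested. HIST1H2AK, by contrast, held 967 and 1299 in METTL5-KO input and 48.2 and 59.1 in METTL5-KO RPF. Its input rose by 0.70 ± 0.13, and its RPF change of 0.40 ± 0.21 had an adjusted p of 0.167 by limma. HIST1H2AH, HIST1H2AI and HIST1H2AJ, which were picked out after their values were seen, are given with their neighbours below.

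Most H2B and H3 genes called in input rose. HIST2H2BE held 2349.6 and 2318 in METTL5-WT input, 2950.1 and 3604 in METTL5-KO input, 20685 and 21848 in METTL5-WT RPF, and 32195 and 31518 in METTL5-KO RPF, and rose by 0.48 ± 0.12 in input and 0.58 ± 0.11 in RPF. HIST1H2BD held 2283 and 2314 in METTL5-WT input, 3003 and 3899 in METTL5-KO input, 5576 and 4691 in METTL5-WT RPF, and 7031 and 6392 in METTL5-KO RPF. HIST1H2BC held 4009.5 and 3686 in METTL5-WT input, 4799 and 5417 in METTL5-KO input, 3941 and 2964 in METTL5-WT RPF, and 4614 and 4279.6 in METTL5-KO RPF. Both rose in input and in RPF. HIST1H2BK held 2256 and 3245 in METTL5-KO input and 739 and 631 in METTL5-KO RPF. Its RPF rose by 0.89 ± 0.20 (limma adjusted p = 0.00326). HIST1H3B, the histone gene with the highest mean over the 8 libraries, held 11623 and 13599.7 in METTL5-WT input, 13457 and 21756 in METTL5-KO input, 55012 and 45609 in METTL5-WT RPF, and 56059.6 and 57792 in METTL5-KO RPF. The input genotypes overlapped, with a change of 0.47 ± 0.16 (edgeR adjusted p = 0.034), and the RPF change of 0.18 ± 0.17 had an adjusted p of 0.458. HIST1H3G overlapped in input, at 3977 and 4109 against 3963 and 5386, and held 6457 and 5553 in METTL5-WT RPF against 5464 and 5244 in METTL5-KO RPF. HIST2H3D held 444 and 612 in METTL5-KO input and 67.5 and 72.5 in METTL5-KO RPF, overlapping with METTL5-WT in both.

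The H4 genes that were called in input or RPF all rose. HIST1H4H held 4231 and 3913 in METTL5-WT input, 5546 and 5713 in METTL5-KO input, 43718 and 42192 in METTL5-WT RPF, and 58878 and 53824 in METTL5-KO RPF. HIST1H4B held 4000.0 and 3886 in METTL5-WT input, 5770.0 and 6844 in METTL5-KO input, 28036 and 26208 in METTL5-WT RPF, and 37921 and 38206 in METTL5-KO RPF. Their input rose by 0.45 ± 0.11 and 0.66 ± 0.12, and their RPF by 0.39 ± 0.11 and 0.49 ± 0.11. After quantile normalization the RPF change of HIST1H4B was −0.055. HIST1H4I held 1816 and 1685 in METTL5-WT input, 2113 and 2438 in METTL5-KO input, 2252 and 2144 in METTL5-WT RPF, and 3603 and 3780.0 in METTL5-KO RPF, without overlap in either.

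Several histone genes that fell sit head to head with an H2B gene that did not. H2A and H2B genes are often paired on opposite strands around a shared upstream stretch. There were 10 such H2A and H2B pairs, with 193 to 250 bases between the annotated starts. In 4 HIST1 pairs the H2A gene fell and its H2B neighbour rose in input: HIST1H2AH fell by 2.28 ± 0.13 and HIST1H2BK rose by 0.48 ± 0.14. HIST1H2AI fell by 1.78 and HIST1H2BL rose by 0.42, HIST1H2AJ fell by 1.33 and HIST1H2BM rose by 0.91, and HIST1H2AG fell by 0.94 and HIST1H2BJ rose by 0.46. In limma with the GC trend removed, the rises of HIST1H2BK, HIST1H2BL and HIST1H2BJ were no longer called (adjusted p = 0.279, 0.318 and 0.0565), while that of HIST1H2BM and the falls of the 4 H2A genes were. By DESeq2, HIST1H2BL had an adjusted p of 0.128. In the pair HIST1H2AM and HIST1H2BO the second gene changed by −0.14 (edgeR adjusted p = 0.436). HIST3H2A and HIST3H2BB split the other way, at 0.83 and −0.87. HIST1H2AE and HIST1H2BG both fell, by 0.56 and 0.71, and HIST1H2AC with HIST1H2BC and HIST2H2AC with HIST2H2BE rose together. HIST1H2AK rose, and HIST1H2BN changed by 0.19 (edgeR adjusted p = 0.269). The RPF of the falling HIST1 H2A genes went with input: HIST1H2AH held 4299 and 4433 in METTL5-WT input, 814 and 993 in METTL5-KO input, 14546 and 13166 in METTL5-WT RPF, and 3297 and 3470.1 in METTL5-KO RPF. Of the rising H2B neighbours in the 4 split pairs, only HIST1H2BK was also called higher in RPF (0.89, limma adjusted p = 0.00326). HIST1H2BJ, HIST1H2BL and HIST1H2BM changed by 0.21, −0.30 and 0.02 in RPF (limma adjusted p = 0.265, 0.236 and 0.951). HIST1H2AI and HIST1H2AJ shared 83.2% and 86.3% of their 30-base coding windows exactly with other genes, and HIST1H2BK shared 86.9%, so their single values are uncertain. The genes of a pair were named after their values were seen.

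The stretches between starts are shown for a pair that split and a pair that rose together, since the pairs share them. They were read from the hg38 genome on the plus strand, and capitals mark ATTTGCAT (the octamer bound by Oct factors), CCAAT and TATAAA on either strand. In the first, 4 bases fall in more than 1 motif.

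HIST1H2BK and HIST1H2AH, chr6:27146856-27147105: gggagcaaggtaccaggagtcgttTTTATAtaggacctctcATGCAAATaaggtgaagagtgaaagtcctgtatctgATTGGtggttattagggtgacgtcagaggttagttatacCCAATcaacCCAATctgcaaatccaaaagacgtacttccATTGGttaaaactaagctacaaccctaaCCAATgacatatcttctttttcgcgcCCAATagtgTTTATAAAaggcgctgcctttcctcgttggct

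HIST1H2BC and HIST1H2AC, chr6:26123927-26124171: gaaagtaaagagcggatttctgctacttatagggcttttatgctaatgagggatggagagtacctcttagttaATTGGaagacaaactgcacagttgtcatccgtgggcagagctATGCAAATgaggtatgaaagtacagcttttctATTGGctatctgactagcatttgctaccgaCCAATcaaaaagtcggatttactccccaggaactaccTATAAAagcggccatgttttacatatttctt

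Of the 10 stretches, 7 held the octamer, 10 held CCAAT and 8 held TATAAA. Among 27305 RefSeq promoters (GRCh38.p14, 250 bases before the start), 1.66% held the octamer, 33.0% CCAAT and 11.1% TATAAA on either strand. Both stretches printed hold all 3. Of the 52 histone genes, 47 matched a RefSeq promoter. In these, counting TATAAA on the sense strand alone, 57.4% held it against 7.09% of 27258 other genes, 89.4% against 32.9% held CCAAT, and 44.7% against 1.59% held the octamer, which was in 9 of 12 H2A and 12 of 16 H2B promoters and in 0 H1, H3 or H4 promoters. CCAAT was in 1 of 6 H4 promoters. These are matches of letters, not binding sites.

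**Figure D4:**
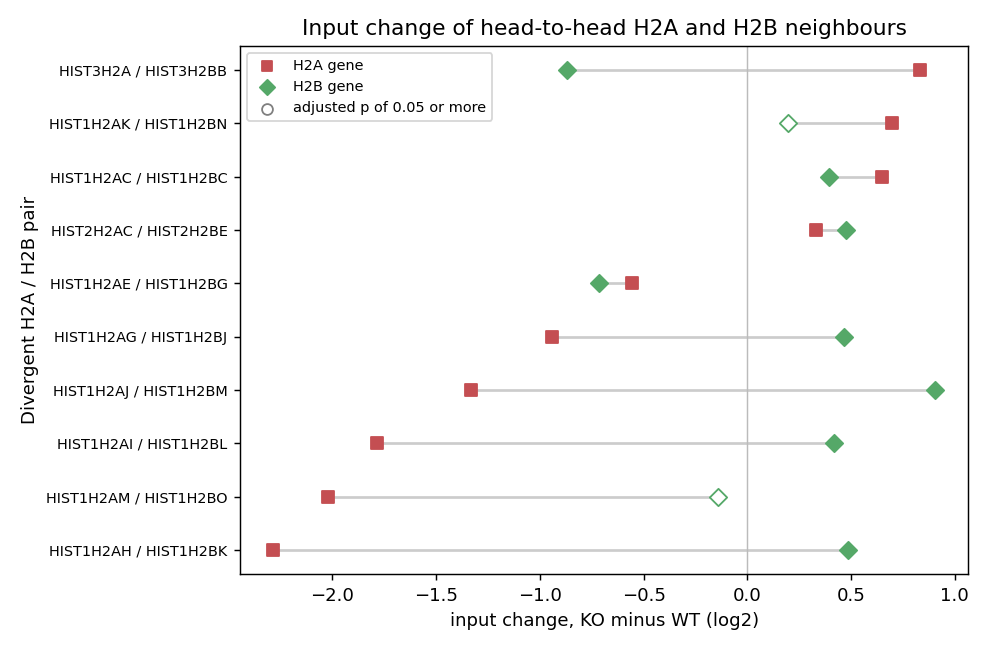
Each row is a head-to-head pair, with the input change in METTL5-KO minus METTL5-WT (log2) of the H2A gene as a square and of the H2B gene as a diamond. Open symbols had an adjusted p of 0.05 or more. The lower 5 rows have the H2A gene at −0.94 or below, with the H2B gene between −0.14 and 0.91.

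In TE few genes were called, among histone genes and among all genes alike. The limma interaction of genotype and library type called 4 of 52, 2 higher and 2 lower, against 4.79% of all 11240 genes tested (2.70% higher, 2.08% lower). The share was 7.69% of the histone genes, and 13 had an unadjusted p under 0.05. The share of all genes under that unadjusted limit was not counted, so counts at an unadjusted p in this paragraph have no background. The median TE change was 0.06 against 0.02 for all genes, and 40 of 52 changed by less than 0.5 in either direction. edgeR on recovered reads called 5 (6.81% of all genes), adding HIST1H2BM. With lysate as a block, which pairs input and RPF of a lysate, the same 4 genes were called (7.06% of all genes). With the GC trend removed, 8 rose and 1 fell, against 2.66% of all genes (1.84% higher and 0.820% lower), and the median change was 0.19. The 8 were HIST4H4, HIST1H4E, HIST1H4I and 5 H2A genes (HIST1H2AC, HIST1H2AG, HIST1H2AH, HIST1H2AM and HIST2H2AC). With the trend on coding length removed 0 rose and 3 fell (4.34% of all genes), and with quantile normalization 2 rose and 4 fell (3.65%). Without a variance trend limma called 0 histone genes and 0.00890% of all genes, with 10 histone genes at an unadjusted p under 0.05, and DESeq2 on recovered reads called 5 (7.46% of all genes). Without METTL5-WT replicate 1 or 2 or METTL5-KO replicate 1, limma called 1 histone gene each time, against 1.81, 2.37 and 1.62% of all genes. Without METTL5-KO replicate 2 it called 0 against 0.0356% of all genes, with 12 histone genes at an unadjusted p under 0.05.

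By type the median TE change was 0.16 for H1, 0.15 for H2A, −0.23 for H2B, 0.10 for H3 and 0.07 for H4. HIST4H4, an H4 gene outside the HIST1 cluster (chr12:14767999-14771131, hg38, minus strand), held 627 and 703 in METTL5-WT input, 608 and 695 in METTL5-KO input, 915 and 981 in METTL5-WT RPF, and 1459 and 1426 in METTL5-KO RPF. RPF rose without overlap while input overlapped, and TE rose by 0.64 ± 0.16 (limma adjusted p = 0.0349, 0.000561 to 0.172 over the alternatives). HIST1H4E held 4329 and 4371 in METTL5-WT input, 6325 and 7729 in METTL5-KO input, 20381 and 17835 in METTL5-WT RPF, and 45769 and 46221 in METTL5-KO RPF. TE rose by 0.59 ± 0.16 (limma adjusted p = 0.0496, 0.00377 to 0.976 over the alternatives), with RPF up by 1.27 and input by 0.68.

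HIST1H3H was the lower call with enough reads. It held 3292 and 3207 in METTL5-WT input, 4229.8 and 5619 in METTL5-KO input, 12886 and 12254 in METTL5-WT RPF, and 10840.2 and 10658 in METTL5-KO RPF. Input rose by 0.59, RPF was lower without overlap but was not called (−0.23, limma adjusted p = 0.166), and TE fell by 0.81 ± 0.17 (limma adjusted p = 0.0133, 0.000185 to 0.166 over the alternatives). With the GC trend removed TE fell by 0.49 (limma adjusted p = 0.0489). HIST1H2BB had few reads, 4 and 3 in METTL5-WT input, 10 and 14 in METTL5-KO input, 10 and 16 in METTL5-WT RPF, and 6 and 5 in METTL5-KO RPF. Its TE change of −3.10 ± 0.82 (limma adjusted p = 0.0415) rests on these. It was not among the 47 genes with 10 reads everywhere, of which 2 rose and 1 fell in TE.

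**Figure D5:**
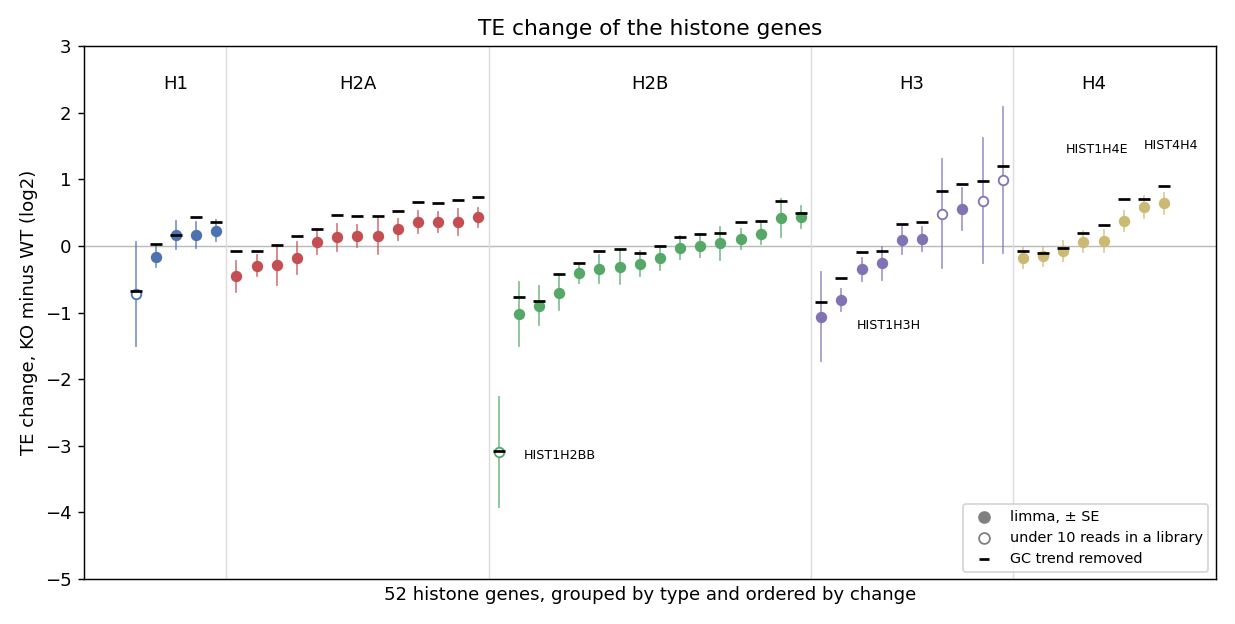
Each point is 1 of the 52 histone genes, with its TE change in METTL5-KO minus METTL5-WT (log2, ± SE) on the vertical axis and genes grouped by type on the horizontal axis. Open points have few reads, and the black dashes give the change with the GC trend removed. HIST4H4 and HIST1H4E lie above 0.5, and HIST1H2BB lies at −3.10.

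The genes that act on histone mRNAs are given with the shares of all genes called, and SLBP was not called in input or TE. SLBP, the stem-loop binding protein, held 1375 and 1308 in METTL5-WT input, 1308 and 1258 in METTL5-KO input, 1235 and 1237 in METTL5-WT RPF, and 1177 and 1201 in METTL5-KO RPF. Its TE change was 0.01 ± 0.14 (limma adjusted p = 0.981). Of 26 measured factors of histone mRNA synthesis, 3′ end cleavage, cap binding and decay, 1 rose (SYMPK, 0.42) and 6 fell in input by edgeR, against 11.8% higher and 10.6% lower over all genes. DESeq2 called 1 higher and 4 lower, against 1108 higher and 1075 lower of 31373 genes with any count. The 6 were CSTF1 (−0.88), CPSF3 (−0.52), CPSF2 (−0.49), CASP8AP2 (−0.49), CTIF (−0.44) and NCBP1 (−0.35). SYMPK is the scaffold symplekin, CPSF3 the cleaving nuclease and CTIF a cap-complex translation factor that interacts with SLBP. In TE, limma called 2 of the 26 higher, NCBP2 (0.67) and CPSF2 (0.63), and 0 lower, against 2.70% and 2.08% of all genes, with 2 lower at an unadjusted p under 0.05. edgeR on recovered reads called the same 2 and also CTIF lower (limma change −0.80, edgeR adjusted p = 0.0490). With the GC trend removed, NCBP2 kept an adjusted p of 0.0489 by limma and CPSF2 had one of 0.123.

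Counts over the remaining lists are to be read against the same shares of all genes, 22.4% called in input by edgeR and 4.79% in TE by limma. By DESeq2, 2183 of 31373 genes with any count were called in input. Replication-independent histones, whose mRNAs carry poly(A), were measured for 9 of 12 listed genes. In input 0 rose and 1 fell (H2AFJ, −0.71), by edgeR and by DESeq2, with 0 higher at an unadjusted p under 0.05. In TE limma called 1 higher (H2AFZ, the H2A.Z gene, 0.75) and 0 lower, as did edgeR, with 1 lower at an unadjusted p under 0.05. H2AFZ stayed called with the GC trend removed (limma adjusted p = 0.0126). Of 18 histone chaperones, 2 rose and 2 fell in input, with TONSL (0.69) and NASP (−0.42) the farthest in each direction. In TE limma and edgeR called 2 chaperones higher (HAT1, 0.70, and RBBP4, 0.58) and 1 lower (TONSL, −0.66). None of these 3 was called once the GC trend was removed (limma adjusted p = 0.0944 for HAT1, 0.132 for RBBP4 and 0.243 for TONSL). The 23 S-phase genes had a median input change of −0.17. The largest falls were those of CCNE1 (−1.02), the cyclin of S-phase entry, and PCNA (−0.76), the polymerase clamp. In TE limma and edgeR called 3 of the 23 higher (RFC4, 0.81, GINS1, 0.61, and CDC6, 0.59) and 0 lower, with 0 lower at an unadjusted p under 0.05, and DESeq2 called 5 higher. RFC4 stayed called after removal of the GC trend (limma adjusted p = 0.0447), and GINS1 (0.150) and CDC6 (0.104) did not.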

How the data were processed

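The members and gene lists were chosen with earlier results of these data known. The authors counted input reads on exons by strand (STAR 2.7.3a, hg38, uniquely mapped reads), and deposited raw counts from featureCounts, whose version is 1.6.0 in the submitters' processing notes. For RPF the authors trimmed reads, removed rRNA and ran RiboToolkit with at most 2 mismatches and no multi-mapping reads. The table the authors deposited is named RPKM, but its values are a signal of whole reads times 1 constant per library, with no length term, and whole reads were recovered for 100% of values within 0.01. The table's own log2 fold changes and p-values, also deposited, hold the authors' comparison and were not used.

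Input counts were tested with edgeR 4.0.16 (quasi-likelihood, TMM, filterByExpr with a minimum count of 10). For RPF and TE, limma 3.58.1 with a variance trend was fitted to log2(value + 1) in all 8 libraries as 4 group means, keeping genes whose mean reached 1 in each library type. Fold changes of low genes are understated on this scale. Adjusted p under 0.05 was called. DESeq2 1.42.0 and edgeR on recovered reads were alternatives. The tests were checked on simulated data with a common dispersion, in which false calls made up 8.91% of limma RPF calls over 11240 genes and 3.24% of edgeR ones, so edgeR counts stand beside the limma counts. Near-copies and stem-loops were searched in the canonical transcripts of GENCODE release 44. All histone genes were counted. Those given in every library were, per type, the 3 with the highest mean, TE calls with 10 reads everywhere, the extremes of METTL5-WT TE, and HIST1H2BB. Replicate numbers did not pair genotypes (r of same-numbered deviations 0.04 in input and 0.00 in RPF). Input and RPF of 1 number share a lysate by protocol, although their replicate deviations also had r near 0 (−0.02 in METTL5-WT and 0.05 in METTL5-KO). The count table held 3 broken lines, which were left out.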

Additional observations from a re-analysis of the deposited data

Results flagged for a closer look

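A number of histone genes of the same families are in the input count table but not in the table of 11244 genes, so the comparisons do not use them. Of 17 such genes with an annotated coding sequence, 7 held more than 3 counts, the limit that a count of 0 allows, in each of the 4 input libraries. The mean input count over those libraries was 768.5 for HIST1H2AD, 177 for HIST1H4J, 123 for HIST1H4K, 63.8 for HIST1H2BE, 36.8 for HIST2H4A, 7.75 for HIST2H3PS2 and 5.75 for HIST2H3A. In METTL5-WT, HIST1H2AD was at 905 and 827, and in METTL5-KO at 704 and 638. HIST2H4A was at 10 and 11 against 60 and 66, and HIST1H4J at 102 and 100 against 182 and 325. No RPF value of these genes was analysed here.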

How the results depend on the processing

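Over the alternatives below, input medians stayed positive, while the RPF and TE medians and the split of calls did not keep their direction. The limma input fit and the counts over the 13 genes with a near-copy share under 50% were chosen after seeing the data. With the GC trend removed, the input median was 0.22 (0.37 as reported) and TE calls numbered 9 (4 as reported). GC removal with the lysate block gave 9 TE calls (456 of 11220 over all genes), and with the replicate-number block 8 (318 of 11220). The replicate-number block alone gave 25 higher and 10 lower for input, 16 higher and 11 lower for RPF and 4 calls for TE. Over all genes it called 3554 of 14054, 3318 of 11240 and 588 of 11240 in the same order. This block changed no other count by over 1.5 times, although numbers did not pair genotypes (r = 0.04 in input). With quantile normalization the median was 0.024 in RPF and −0.19 in TE, and RPF changed by −0.00463 for HIST1H1C and −0.055 for HIST1H4B. Length removal put the RPF median at −0.023. Without a variance trend limma called 0 in TE, with 10 at an unadjusted p under 0.05 (no share of all genes was counted). In RPF that fit called 9 higher and 9 lower, against 2298 of 11240 over all genes and 3288 of 11240 as reported. Among genes of low near-copy share, calls were 6 in input, 8 in RPF and 1 in TE, with an input median of 0.067 and a METTL5-WT TE of 1.32. That TE (0.98 as reported) was 1.73 per length, 1.13 and 0.90 with pseudocounts of 0.1 and 5, and 0.94 with 10 reads everywhere. Leaving out 1 library or lysate gave 13 to 37 input calls, an input median of 0.19 to 0.43, 21 to 25 RPF calls, an RPF median of 0.058 to 0.27, 0 to 1 TE calls, a TE median of −0.11 to 0.16 and a METTL5-WT TE of 0.97 to 1.00. The causes of these shifts were not tested. Calls over all genes moved too when 1 library was left out. In input they rose without either METTL5-KO library and fell without either METTL5-WT library, and in RPF they fell each time. These fits keep 1 library in a group, so their counts of histone calls cannot be read as more or fewer histone changes. The other alternatives (DESeq2, RLE factors, filters and median centring among them) kept each total of calls within 1.5 times. TE calls split into 1 higher and 2 lower with median centring, without a filter and with a pseudocount of 0.1, and into 2 higher and 1 lower with a mean of at least 10. Over all genes these fits called 549 of 11240, 537 of 11244, 526 of 11240 and 557 of 10627 in the same order. Of 1730 alternative fits of the genes given in every library and the divergent neighbours, 2 reversed, which needed a change of sign and a call. Another 48 changed sign with neither fit called. Calls were lost in 55 input, 37 RPF and 29 TE fits, and gained in 8, 11 and 25. With 2 lysates a group and the shallowest libraries in METTL5-WT RPF, low genes are least precise.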
